A study of Danio rerio with 24 samples.

Results

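The 3 neurexin double-mutant lines that carry full deletions were compared with the 3 lines that carry transmembrane mutations, each within its own neurexin pair. The libraries were taken by their genotype labels, 9 full and 9 tmr, which makes 18 of the 24 whole-brain libraries of the series. The question was which genes differed in the same direction between brains with full-deletion alleles and brains with transmembrane alleles, whichever neurexin pair was hit. A gene was reported when its full-minus-tmr difference had 1 sign in all 3 pairs and passed a test with the neurexin pair as a blocking factor.

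Neurexins are presynaptic adhesion proteins that span the membrane once and bind neuroligins, cerebellins and LRRTM proteins across the synaptic cleft. Zebrafish carry a pair of copies, a and b, of each neurexin gene. The transmembrane region anchors the protein in the presynaptic membrane, so an allele without it can leave the transcript in place while the protein loses its anchor.

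The nrxn2 lines were nrxn2a_full:nrxn2b_full and nrxn2a_tmr:nrxn2b_tmr, and the nrxn3 lines nrxn3a_full:nrxn3b_full and nrxn3a_tmr:nrxn3b_tmr, with 3 libraries each. Statements on all 3 pairs, or on 9 full and 9 tmr libraries, rest on the fits over 18 libraries, and single values are given for the nrxn2 and nrxn3 lines. All were made by CRISPR/Cas9 in fish of the AB background and RNA came from adult brains without treatment. The full alleles were designed to remove the whole locus with its introns, although reads of nrxn2a, nrxn2b and nrxn3a remained in those libraries, and in the tmr alleles the last exon is hit, in these lines by a deletion. Each genotype is 1 line, so an allele type is represented by 3 lines, and libraries of a line share its founders and inbreeding. How many brains went into a library, and the sex and age of the fish within adulthood, are not given in the sources used here.

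The 18 libraries held between 29820806 and 38963748 counts, 30540696 to 38963748 in full and 29820806 to 38016650 in tmr libraries, and 23208 of 37241 genes were tested. Values are normalised counts, that is, read counts divided by a size factor per library, and differences are log2, full minus tmr. Neuron markers were abundant in every library, with sums over 16 genes from 374114 to 439848. The library of nrxn2 full replicate 1 stood apart from its line, with a chi-square per gene of 51.9 and 67.1 against its mates where other libraries of a line had 26.0 to 37.2, and the counts that rest on the nrxn2 pair are given with and without it. Sums over 36 retina and photoreceptor genes ran from 748 to 27067 in the full and from 961 to 65028 in the tmr libraries, although the eyes had been removed.

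The targeted neurexins came first, as a check of the labels. In the nrxn2 pair, nrxn2a had 345, 369.8 and 334 in nrxn2 full libraries, against 3956, 3609.9 and 3919 in nrxn2 tmr libraries. For nrxn2b the values were 1803, 2217 and 2098 in nrxn2 full libraries, against 6667, 6546 and 6329 in nrxn2 tmr libraries. In the nrxn3 pair, nrxn3a had 1291, 1493 and 1513 in nrxn3 full libraries, against 14494, 14018 and 14381 in nrxn3 tmr libraries. For nrxn3b they were 3.89, 0 and 1.08 in nrxn3 full libraries, against 3994, 4429.9 and 4239 in nrxn3 tmr libraries. No full library overlapped a tmr library of its own pair in any of these 4 genes. The full lines therefore kept 31.3% of the tmr level of nrxn2b, 10.02% of nrxn3a and 9.13% of nrxn2a, and under 1% of nrxn3b. All 4 were called in their own pair by edgeR's quasi-likelihood test with Benjamini-Hochberg adjustment, at the 0.05 threshold used throughout. The log2 difference was -1.68 for nrxn2b (SE 0.0691, adjusted p = 1.83e-09), -3.45 for nrxn2a (SE 0.0592, adjusted p = 6.75e-14) and -3.32 for nrxn3a (SE 0.0735, adjusted p = 2.45e-12). The nrxn2 copies and nrxn3a thus fell without reaching 0. For nrxn3b, which had 5 reads in the full line, the tmr level over the full level was 2471 (exact 95% counting interval 1058 to 7611). This interval covers counting error only, since reads of 1 library are not independent molecules. A separate identifier with the symbol NRXN2 fell in the nrxn2 pair as well, to 1133 ± 163 in the full line against 3318 ± 89.9 in the tmr line (SD, n = 3 each), and whether its reads can be told apart from those of nrxn2b was not tested.

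**Figure D1:**
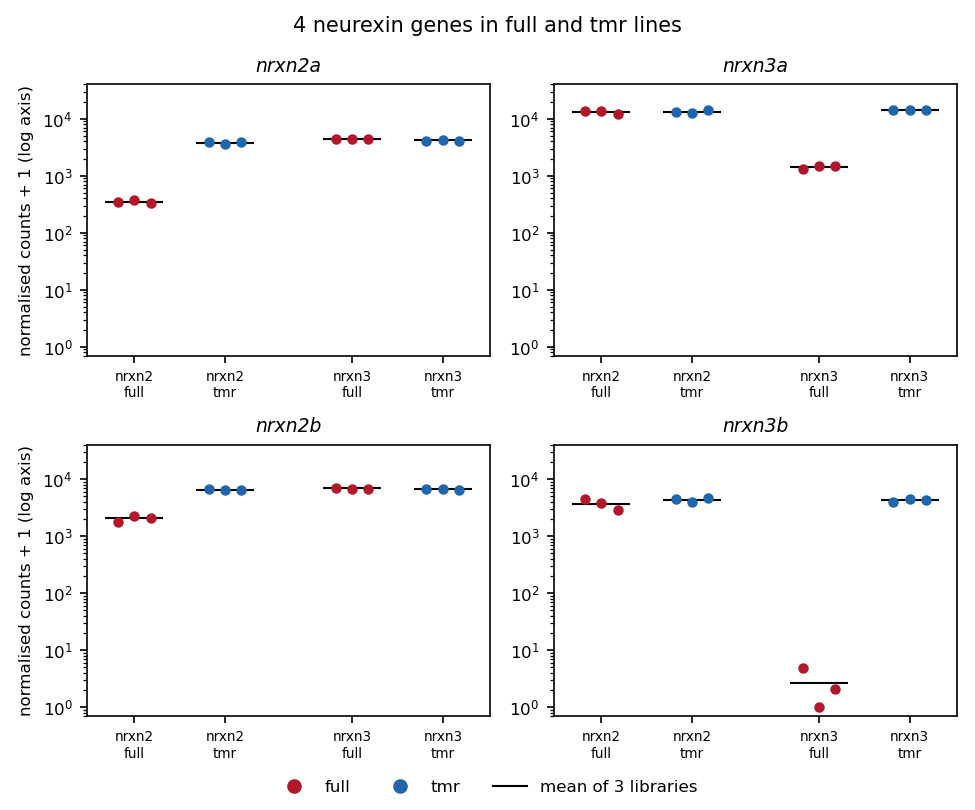
Normalised counts plus 1, on a log axis, of nrxn2a, nrxn2b, nrxn3a and nrxn3b in each of 12 libraries of the nrxn2 and nrxn3 lines (points; full red, tmr blue) with the mean of 3 libraries per line (bars). Each gene drops in the full line of its own pair, to 31.3% of the tmr level for nrxn2b and to under 1% for nrxn3b.

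Within single pairs the full and tmr brains differed in many genes, and mostly in other genes in each pair. In the nrxn2 pair 1479 genes were higher and 1325 lower in full, 12.1% of the genes tested, and in the nrxn3 pair 547 were higher and 548 lower (4.72%). Of the 4217 genes called in at least 1 of the 3 pairs, 3501 (83%) were called in exactly 1, and without nrxn2 full replicate 1 these were 6030 of 6920 (87.1%). Without nrxn2 full replicate 1 the nrxn2 pair had 5466 calls, 2329 higher and 3137 lower. It had 1611 calls without nrxn2 full replicate 2 and 1470 without nrxn2 full replicate 3, and 1574, 1863 and 1663 without nrxn2 tmr replicates 1, 2 and 3. The nrxn3 pair had 684 calls without nrxn3 full replicate 2.

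The pairs share no library, so a gene called in a pair can be looked up in another. Their tests are not fully separate, since 1 estimate of the spread was taken from all 18 libraries. The nrxn3 pair, with 1095 calls, had 975 without nrxn2 tmr replicate 2 and 1215 without nrxn2 full replicate 1. The nrxn2 and nrxn3 pairs shared 273 calls, 9.74% of those of the nrxn2 pair and 24.9% of those of the nrxn3 pair, and 97 of these went in opposite directions. Of 634 genes called in exactly 2 of the 3 pairs, 319 went in opposite directions, and of 82 called in all 3 pairs 65 had mixed directions. Without nrxn2 full replicate 1 the nrxn2 and nrxn3 pairs shared 374 calls (6.84% and 30.8%), 151 of them opposite. There were then 779 genes called in exactly 2 pairs, 396 of them opposite, and 111 called in all 3, 84 of them mixed. Across the 23208 genes the log2 differences had a Pearson r of 0.076 between the nrxn2 and nrxn3 pairs. This is a description across genes, which are not independent replicates.

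**Figure D2:**
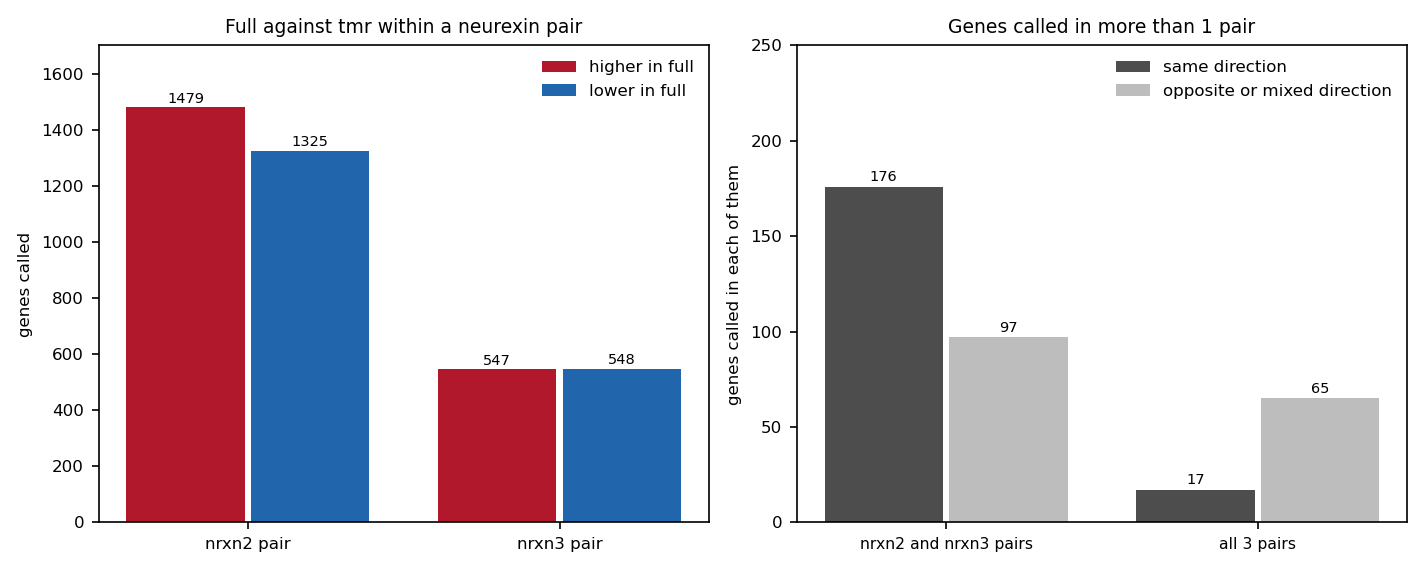
Left, number of genes called higher (red) or lower (blue) in full than in tmr within the nrxn2 and the nrxn3 pair. Right, number of genes called in both of these pairs or in all 3 pairs, split by whether the directions were the same (dark) or not (light), with 17 of 82 genes in 1 direction in all 3 pairs.

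In many genes the difference varied between the pairs. The test of the difference between the 3 pairs called 3123 genes (13.5%), and 5561 without nrxn2 full replicate 1. The genes with the lowest adjusted p after the neurexins were near 0 in all libraries of 1 or more lines and abundant in the others. FBXO45, an F-box protein of a ubiquitin ligase at synapses, had 554, 577 and 489 in nrxn2 full libraries, against 1.86, 2.58 and 3.02 in nrxn2 tmr libraries. In the nrxn3 pair it had 196, 195 and 180.3 in nrxn3 full libraries, against 5.4, 6.26 and 5.97 in nrxn3 tmr libraries (edgeR adjusted p of the difference between pairs = 1.78e-10).

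ARPP19 (ENSDARG00000032532), an inhibitor of the phosphatase PP2A, had 2509, 2426 and 2459 in nrxn3 full libraries, against 7.56, 13.6 and 9.94 in nrxn3 tmr libraries. In the nrxn2 pair it was abundant in both lines, with 3045, 2834 and 1331 in nrxn2 full libraries, against 1526, 1601 and 1554 in nrxn2 tmr libraries (adjusted p between pairs = 9.13e-10). SMNDC1, a splicing factor, had 7.78, 5.15 and 3.24 in nrxn3 full libraries, against 1468, 1475 and 1459 in nrxn3 tmr libraries, and in the nrxn2 pair 1741, 1642 and 2011 in nrxn2 full libraries, against 1404, 1468 and 1361 in nrxn2 tmr libraries. SDHAF2, an assembly factor of succinate dehydrogenase, had 938, 1045 and 1142 in nrxn2 full libraries, against 10.3, 12.9 and 6.04 in nrxn2 tmr libraries. cpt1ab, a carnitine palmitoyltransferase that brings fatty acids into mitochondria, had 22.2, 14.4 and 13.4 in nrxn2 full libraries, against 288, 262 and 206 in nrxn2 tmr libraries. The remaining gene of this group, si:ch73-119p20.1, had 13913, 16288 and 15769.5 in nrxn2 full libraries, against 21.4, 12.03 and 11.1 in nrxn2 tmr libraries.

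Against this background, 5326 genes (22.9%) had 1 sign in all 3 pairs, 2658 higher and 2668 lower in full. Signs agree in a share of genes even where pairs are unrelated, so this count alone is no sign of a shared difference. The blocked test, edgeR's quasi-likelihood test with neurexin pair and allele type as terms, called 358 genes (1.54%), of which 333 (1.43%) had 1 sign in all 3 pairs. These were 173 genes higher (0.745%) and 160 genes lower (0.689%) in full than in tmr brains. The sign was part of the rule, so it is no sign of stability. The differences were often large, with a median absolute log2 difference of 0.783, 142 genes past 2-fold and 126 under 1.5-fold. In 70 of the 333 the size of the difference also varied between pairs. Without nrxn2 full replicate 1 the count was 360, of which 278 were among the 333, and of the named genes tmt1a.1, si:ch211-127b6.2 and SRD5A2 lost the call.

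The count depends on what is taken as the replicate. The blocked test treats 9 libraries per allele type as separate, although they come from 3 lines. With the counts summed per line, edgeR called 0 genes. An unadjusted p under 0.05 with 1 sign was found in 698 of the 23208 genes tested, against 2329 (10%) in the blocked test. Such p-values occur in a share of genes even where none differs, so the 698 alone are no sign of a shared difference. With the line as a correlated block in limma-voom 47 genes (0.203%) were called, 44 of them among the 333. That fit used 1 correlation within a line, 0.256, for every gene, so libraries of a line still counted in part as separate. DESeq2 with the terms of the blocked test called 1019 (4.39%), of which 322 were among the 333. With 3 pairs of lines, an exact sign-flip test of a single gene cannot go below p = 0.25. Whether these differences belong to the allele types, or to lines that happen to differ alike in 3 pairs, cannot be told apart.

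Some genes were abundant in all or nearly all libraries of 1 allele type and nearly absent from the other. In 184 genes (0.793%) the 3 full libraries lay on 1 side of the 3 tmr libraries in every pair, and 116 of these were called. In 45 genes all 9 full libraries lay on 1 side of all 9 tmr libraries, and 34 of these were called, 10 higher and 24 lower in full. Each of 17 genes (0.0733%) was called in the same direction in the 3 pairs taken one by one, 6 higher and 11 lower in full, and 10 of the 17 had no symbol. Without nrxn2 full replicate 1 such genes numbered 27. Of the 82 genes called in all 3 pairs, 65 had mixed directions. Directions agree in a share of genes even where pairs are unrelated, so the count of 17 alone is no sign of a shared difference. Those of the 17 without a symbol are given here by identifier. They, as well as SRSF1 and si:dkeyp-93h6.3, were named after their values were seen, because they were called in each pair.

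ENSDARG00000104629 was the most abundant of them. It had 3.70, 4.79 and 5.75 in nrxn2 full libraries, against 2583, 2490.5 and 2584 in nrxn2 tmr libraries. It had 0.973, 1.03 and 2.16 in nrxn3 full libraries, against 2049, 1784 and 2548 in nrxn3 tmr libraries. Over the 9 libraries of each type this made 28 reads in full against 26527 in tmr, and the blocked log2 difference was -9.92 (SE 0.245, adjusted p = 6.2e-13), with adjusted p = 1.71e-05 when the line was a correlated block. It was 1 of 4 genes in which every full library of a pair stayed under 5% of every tmr library in all 3 pairs, and no gene did so in the other direction. A further 11 genes passed this limit in all 3 pairs, but in mixed directions. Of the 1104 genes past it in at least 1 pair, 65 passed it in 2 pairs in the same direction and 82 in opposite directions. Directions agree in a share of such genes even where pairs are unrelated, so these counts alone are no sign of a shared difference.

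The others of the 4 had fewer counts. ENSDARG00000114434 had a median of 3.09 normalised counts in the 9 full libraries (range 0 to 5.19), against 591 in the 9 tmr libraries (range 469 to 1173). ENSDARG00000116037 had a median of 0 normalised counts in the 9 full libraries (range 0 to 2.99), against 159 in the 9 tmr libraries (range 125 to 305). ENSDARG00000110250 had a median of 0 normalised counts in the 9 full libraries (range 0 to 1.73), against 30.1 in the 9 tmr libraries (range 14.1 to 73.4), with 2 reads in all full libraries together. Another gene, ENSDARG00000111215, stayed above that limit in the nrxn3 pair only. It had 0, 14.4 and 9.71 in nrxn3 full libraries, against 89.6, 72.0 and 145 in nrxn3 tmr libraries. The 4 genes were therefore on in tmr brains and at or near 0 in full brains, and ENSDARG00000111215 was low but not near 0 in 2 of the nrxn3 full libraries.

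Genes on in full brains and near 0 in tmr brains were found too. ENSDARG00000110391 had 763, 1329 and 0.959 in nrxn2 full libraries, against 0.932, 1.72 and 0 in nrxn2 tmr libraries, so nrxn2 full replicate 3 was at the tmr level. It had 513, 512 and 476 in nrxn3 full libraries, against 1.08, 0 and 0 in nrxn3 tmr libraries. ENSDARG00000110657, ENSDARG00000111985, ENSDARG00000110059 and ENSDARG00000110691 showed the same layout, on in 8 full libraries and low in nrxn2 full replicate 3 and in all tmr libraries. For ENSDARG00000110691 that library had 11.5 normalised counts, against 276 and 430.1 in the other nrxn2 full libraries and at most 9.88 in tmr. These 5 genes lost the call with the line as a correlated block (adjusted p between 0.426 and 0.935).

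**Figure D3:**
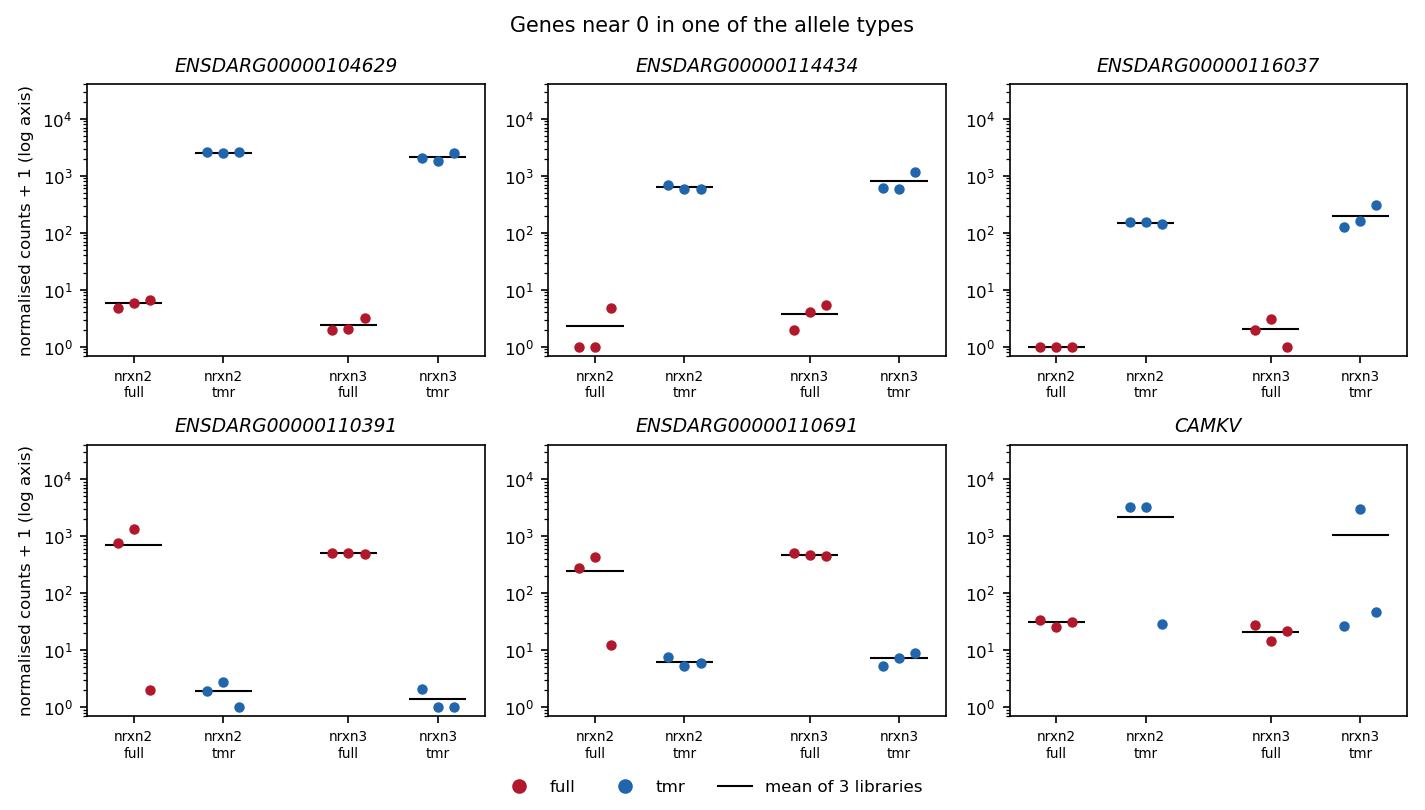
Normalised counts plus 1, on a log axis, of 5 genes without a symbol and of CAMKV in the 12 libraries of the nrxn2 and nrxn3 lines (points; full red, tmr blue; bars, mean of 3 libraries). Over all 18 libraries the genes of the upper row had 0 to 5.75 normalised counts in the full and 125 to 5115 in the tmr libraries, the first 2 of the lower row were high in full except in nrxn2 full replicate 3, and CAMKV was high in 4 of all 9 tmr libraries.

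CAMKV (ENSDARG00000005141), a kinase-like protein of synaptic vesicles without kinase activity, had the largest fall among named genes that have a symbol. It had 33.3, 24.9 and 30.7 in nrxn2 full libraries, against 3229.6, 3271 and 27.17 in nrxn2 tmr libraries. It had 26.3, 13.4 and 20.5 in nrxn3 full libraries, against 25.9, 3044 and 44.7 in nrxn3 tmr libraries. Thus 4 of the 9 tmr libraries, spread over the 3 tmr lines, had over 1000 and the other 5 had 24.5 to 44.7, while the highest of the full libraries had 33.3. The blocked difference was -5.99 (SE 1.26, adjusted p = 0.0265), but the groups overlapped in each pair and the call was lost in 5 of the 18 fits that left out 1 library (highest adjusted p 0.128).

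LAS1L, which takes part in ribosomal RNA processing, was laid out the other way. It had 129.6, 0 and 0.959 in nrxn2 full libraries, against 0, 0 and 1.01 in nrxn2 tmr libraries. It had 27.24, 156 and 29.1 in nrxn3 full libraries, against 3.24, 0 and 0.994 in nrxn3 tmr libraries. It was over 20 in 7 of 9 full and in 0 of 9 tmr libraries, with a blocked difference of 6.88 (SE 1.13, adjusted p = 0.00675). With the line as a correlated block neither CAMKV nor LAS1L kept its call (adjusted p = 0.928 and 0.452, limma-voom).

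Graded differences in each pair were found among genes expressed in every library. Most of the graded genes given here were named because their groups did not overlap in any pair. DYNLL2 (ENSDARG00000069790), a light chain of the dynein motor, had 2077, 1361 and 1495 in nrxn2 full libraries, against 3777, 3481 and 3525 in nrxn2 tmr libraries. It had 1304, 1215 and 1178 in nrxn3 full libraries, against 2508, 2219.7 and 4017 in nrxn3 tmr libraries. The full libraries were below the tmr libraries in each pair, with differences of -1.13 and -1.24 in the nrxn2 and nrxn3 pairs, which are the pair differences given from here on, and a blocked difference of -1.14 (SE 0.105, adjusted p = 3.16e-05). The 9 full libraries as a whole overlapped the 9 tmr libraries.

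ift74, a subunit of the intraflagellar transport complex of cilia, had 1673, 1736 and 1769 in nrxn2 full libraries, against 2111, 2471 and 2443 in nrxn2 tmr libraries. It had 1812, 1528 and 1731 in nrxn3 full libraries, against 3011, 3089 and 2529 in nrxn3 tmr libraries. It fell in all 3 pairs, with a blocked difference of -0.56 (SE 0.0619, adjusted p = 0.000268). tek, the Tie2 receptor of endothelium, had pair differences of -0.41 and -0.84 and a blocked difference of -0.55 (SE 0.107, adjusted p = 0.0164). TMEM101, a membrane protein, had a median of 464 normalised counts in the 9 full libraries (range 376 to 644), against 792 in the 9 tmr libraries (range 608 to 904) and fell by 0.66 on the log2 scale (SE 0.0751, adjusted p = 0.000330). SRSF1 (ENSDARG00000057691), a splicing factor of the SR family, had pair differences of -0.23 and -0.32, each called, and its size varied between pairs (adjusted p = 0.000215). The uncharacterised genes si:dkeyp-44a8.2 and si:dkeyp-93h6.3 also fell in each pair, with pair differences of -0.42 and -0.58 for si:dkeyp-44a8.2 and of -3.16 and -2.79 for si:dkeyp-93h6.3. The latter had few counts, 1.85 to 15.1 in the 9 full libraries against 26.1 to 69.1 in the 9 tmr libraries. Its mean of 30.8 over the 18 libraries lay under the 50 asked of the largest rises and falls. Of these 7 falling genes DYNLL2, ift74, TMEM101, SRSF1 and both uncharacterised genes were called in each pair alone, and tek was not. SRSF1 and si:dkeyp-93h6.3 were named only because they were called in each pair, after the values were seen. DYNLL2, ift74, TMEM101 and si:dkeyp-44a8.2 were named for having no overlap in any pair. Agreement between the pairs is therefore no separate support for these genes.

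NRG2 (ENSDARG00000086585), a neuregulin that activates ErbB receptors, rose in every pair. It had 1311, 1564 and 1288 in nrxn2 full libraries, against 384, 414 and 470.0 in nrxn2 tmr libraries. It had 1022, 1097 and 1219.7 in nrxn3 full libraries, against 826, 432 and 909 in nrxn3 tmr libraries. All 9 full libraries were above all 9 tmr libraries, and the blocked difference was 1.23 (SE 0.161, adjusted p = 0.00113), with a smaller pair difference in the nrxn3 than in the nrxn2 pair (adjusted p between pairs = 0.0422).

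POLR3E, a subunit of RNA polymerase III, had 1806, 2079 and 1817 in nrxn2 full libraries, against 1344, 885 and 990.3 in nrxn2 tmr libraries. It had 1949, 1870.1 and 1929.9 in nrxn3 full libraries, against 1098, 976 and 1000.3 in nrxn3 tmr libraries. SRD5A3, an enzyme of dolichol synthesis, had a median of 483 normalised counts in the 9 full libraries (range 401 to 603), against 303 in the 9 tmr libraries (range 246 to 399). SNX29, a sorting nexin, had a median of 887 normalised counts in the 9 full libraries (range 802 to 986), against 634 in the 9 tmr libraries (range 534 to 746). For these genes too the 9 full libraries all lay above the 9 tmr libraries, with blocked differences of 0.70, 0.67 and 0.44 (adjusted p = 0.00113, 0.000963 and 0.00131, edgeR). akap12b, an anchoring protein for protein kinase A, had pair differences of 0.32 and 0.24, was called in each pair and had a blocked difference of 0.26 (SE 0.0317, adjusted p = 0.000784). The uncharacterised si:dkey-172k15.3 rose by 0.82 on the log2 scale. With the line as a correlated block in limma-voom the graded genes DYNLL2, ift74, TMEM101, SRSF1, si:dkeyp-44a8.2, si:dkeyp-93h6.3, NRG2, POLR3E, SRD5A3, SNX29, akap12b and si:dkey-172k15.3 kept their call, with adjusted p from 0.00676 for DYNLL2 to 0.0490 for SRSF1, and tek did not (adjusted p = 0.170).

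Zebrafish often keep a pair of copies of a gene. Of the symbols of the named genes, chosen as described below, 9 are carried by a second tested identifier, so the identifier is given beside them. Genes given only as members of lists, runs or neighbours of neurexins were not part of this check. None of the 9 second identifiers was called by edgeR in the blocked fit. The second DYNLL2 identifier had pair differences of 0.56 and 0.08. The second CAMKV identifier had a mean of 4377 normalised counts over the 18 libraries and a blocked difference of -0.02, and the second NRG2 identifier a blocked difference of 0.02 (adjusted p = 0.887 and 0.944, edgeR). Whether reads were split between such copies was not tested.

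**Figure D4:**
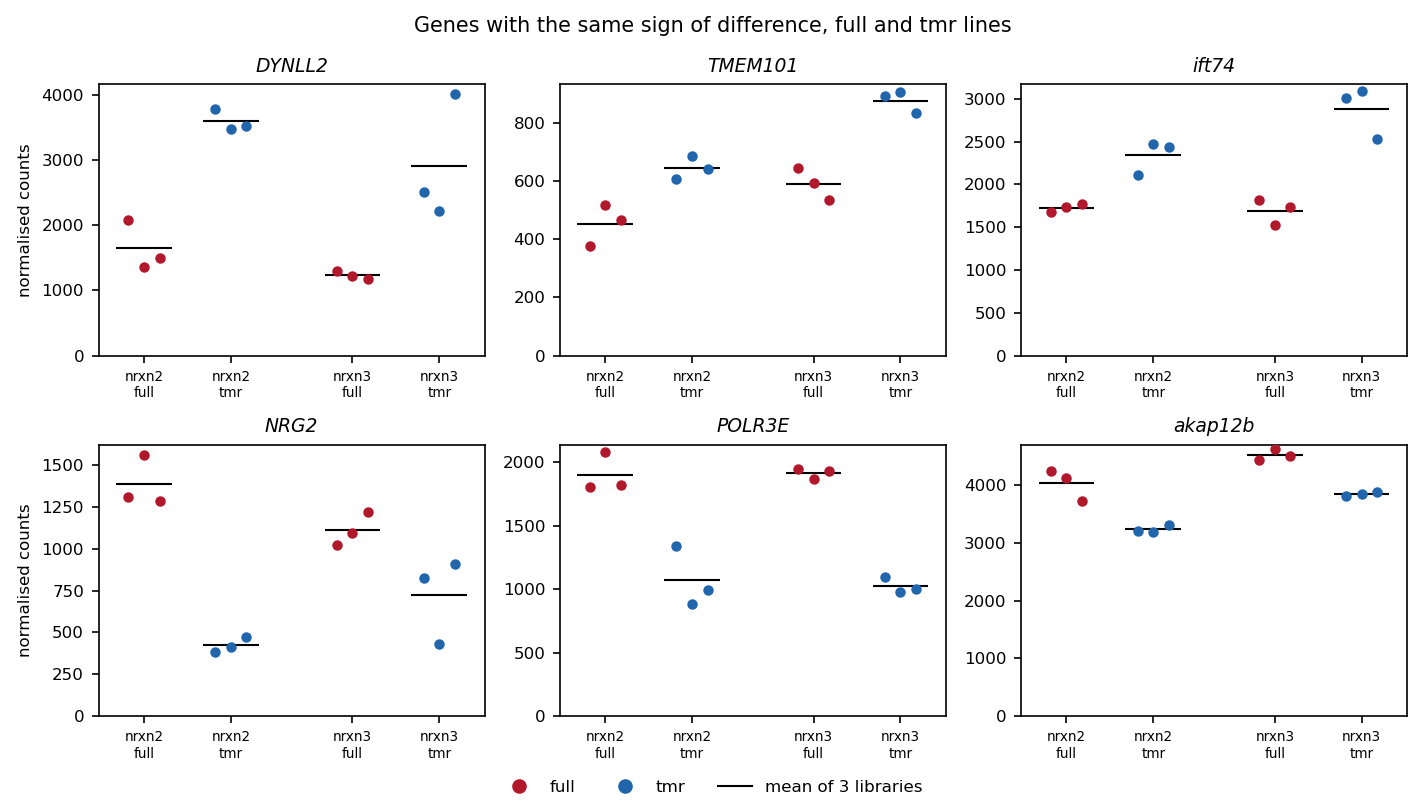
Normalised counts of 6 genes in the 12 libraries of the nrxn2 and nrxn3 lines (points; full red, tmr blue; bars, mean of 3 libraries), on linear axes from 0. In both pairs the 3 full libraries lie below the 3 tmr libraries for DYNLL2, TMEM101 and ift74 and above them for NRG2, POLR3E and akap12b, by a blocked difference of -1.14 for DYNLL2 and 1.23 for NRG2.

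Among the 10 largest rises with a symbol, 5 had a described function beside 5 uncharacterised ones. timm23b, part of the channel that imports proteins into mitochondria, had a median of 152 normalised counts in the 9 full libraries (range 51.5 to 266), against 37.7 in the 9 tmr libraries (range 27.8 to 68.9) and a blocked difference of 1.68 (SE 0.235, adjusted p = 0.00204). SRD5A2 (ENSDARG00000039067), a steroid 5-alpha-reductase, had 149, 159.7 and 209 in nrxn3 full libraries, against 38.9, 16.7 and 40.8 in nrxn3 tmr libraries, but in the nrxn2 pair the groups overlapped at 34.2, 25.9 and 22.1 in full against 32.6, 26.6 and 16.1 in tmr libraries (adjusted p between pairs = 0.00716). SLC35C2, of a family of nucleotide sugar transporters, had pair differences of 3.22 and 2.02, and tmt1a.1, of a methyltransferase family, 8.11 and 5.92. The call of SLC35C2 was lost in 5 of the 18 fits that left out 1 library (highest adjusted p 0.0690), and that of tmt1a.1 in 12 of the 18 fits that left out 1 library (highest adjusted p 0.0932). The remaining 5 were si:ch211-76m11.5, si:ch211-205a14.1, si:dkey-29l4.4, si:ch211-127b6.2 and si:dkey-229e3.2, with blocked differences of 3.84, 3.05, 2.43, 2.08 and 1.66. Of these, si:ch211-127b6.2 lost the call in 13 of the 18 fits that left out 1 library (highest adjusted p 0.0656) and si:ch211-76m11.5 in 4 of the 18 fits that left out 1 library (highest adjusted p 0.0630). With the line as a correlated block in limma-voom timm23b, SRD5A2, si:ch211-76m11.5 and si:ch211-205a14.1 kept their call, while LAS1L, tmt1a.1, SLC35C2, si:dkey-29l4.4, si:ch211-127b6.2 and si:dkey-229e3.2 lost it (adjusted p from 0.104 to 0.785). Within a line si:ch211-76m11.5 varied widely, with 112, 694 and 49.7 in nrxn3 tmr libraries, against 1193, 1318 and 1295 in nrxn3 full libraries. So did si:ch211-205a14.1, with 28.1, 220 and 11.9 in nrxn3 tmr libraries, against 424, 467 and 519 in nrxn3 full libraries.

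Among the 10 largest falls, several differed little in the nrxn2 pair. prox3, a homeodomain transcription factor of the prospero family, had 2.92, 7.21 and 2.16 in nrxn3 full libraries, against 879, 1933 and 1365 in nrxn3 tmr libraries, whereas the nrxn2 pair overlapped, at 846, 413 and 951 in full against 963, 924 and 832 in tmr libraries. Its neighbour snx15, a sorting nexin, was nearly absent from the nrxn3 full line as well, with pair differences of -0.77 and -8.63. The sizes differed between pairs for both (adjusted p = 1.04e-06 and 1.21e-05), and leaving out 1 library ended the call of prox3 in 13 and of snx15 in 9 of 18 fits. dok7a, an activator of the MuSK receptor at neuromuscular junctions, had pair differences of -0.13 and -2.27 and lost the call in 12 of the 18 fits that left out 1 library (highest adjusted p 0.0924).

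trip6, a LIM protein of focal adhesions that is next to snx15, was lower in full in every pair, though not called alone in the nrxn2 pair (adjusted p = 0.0771), with a median of 60.3 normalised counts in the 9 full libraries (range 45.03 to 252), against 337 in the 9 tmr libraries (range 277 to 455) and no overlap. RPL13A, a protein of the large ribosomal subunit, had 19.4, 22.99 and 23.02 in nrxn2 full libraries, against 157, 133 and 133 in nrxn2 tmr libraries. It had 5.84, 5.15 and 4.32 in nrxn3 full libraries, against 267, 195 and 227 in nrxn3 tmr libraries. All 9 full libraries were below all 9 tmr libraries for RPL13A, with pair differences of -2.68 and -5.45 and a blocked difference of -2.98 (SE 0.530, adjusted p = 0.0108). ltk, a receptor tyrosine kinase needed for iridophores, had a median of 6.71 normalised counts in the 9 full libraries (range 0 to 77.7), against 83.0 in the 9 tmr libraries (range 12.9 to 197) and a blocked difference of -3.34 (SE 0.694, adjusted p = 0.0244). The pair differences of ltk were -1.51 and -6.05, and it was not called alone in the nrxn2 pair (adjusted p = 0.238, edgeR). KAZN (ENSDARG00000076923), the junction protein kazrin, had a median of 77.8 normalised counts in the 9 full libraries (range 30.7 to 371), against 336 in the 9 tmr libraries (range 262 to 654) and a blocked difference of -1.98 (SE 0.373, adjusted p = 0.0147). The pair differences of KAZN were -2.67 and -0.69. In the nrxn3 pair its groups overlapped and it was not called alone (adjusted p = 0.545, edgeR). MMGT1, a subunit of the membrane protein insertion complex of the endoplasmic reticulum, and GDPD2, a glycerophosphodiesterase, fell in the nrxn2 and nrxn3 pairs, with pair differences of -2.67 and -2.62 and of -2.37 and -2.12. The call of GDPD2 was lost in 3 of the 18 fits that left out 1 library (highest adjusted p 0.0517). With the line as a correlated block in limma-voom only trip6 and MMGT1 of the 10 falls kept their call, and CAMKV, prox3, snx15, ltk, RPL13A, dok7a, KAZN and GDPD2 lost it (adjusted p from 0.0606 for ltk to 0.928 for CAMKV).

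Some of the called genes lie next to each other in the genome. The order was read from the RefSeq gene table of the GRCz12tu assembly by symbol, which placed 61.7% of the tested and 56.5% of the called genes. As fewer than 80% were placed, a check of positions over the whole set is void, and only the runs themselves are described. With at most 2 uncalled genes between them, 37 called genes fell in 10 runs of at least 3, chosen after the values were seen.

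In the longest run, 7 of 10 genes were called and all 7 were higher in full. It runs past mhc2d4b, an MHC class II gene, ftr51, a finTRIM gene of the fish-specific family linked to antiviral responses, and the membrane-spanning ms4a17a.17 and ms4a17a.16. The pair differences were 1.00 and 0.63 for mhc2d4b and 1.96 and 1.40 for ms4a17a.17, and ftr51 had a blocked difference of 1.04 (SE 0.176, adjusted p = 0.00779). For ms4a17a.16 they were 3.38 and 2.79, with 21.3, 22.99 and 16.3 normalised counts in nrxn2 full libraries, against 2.80, 2.58 and 0 in nrxn2 tmr libraries. The uncalled zgc:123107 between them had differences of 0.26 and -0.77.

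In other runs the called genes fell together. From apool to atrxl, 5 of 7 genes were called and all 5 were lower in full, among them BRWD3, a bromodomain protein, at -0.43 and CHMP1B, an ESCRT subunit, at -0.84 in the blocked fit. prox3, snx15 and trip6 form a run of 3 of 3. From GDPD2 to SEPTIN6, 4 of 5 were called, including rab41 at -0.78 and SEPTIN6, a septin of the cytoskeleton, at -1.04, and the run of INTS6L, MMGT1 and map7d3 fell too. The pair differences of SEPTIN6 were -1.48 and -1.40. NEK8, TADA2A and SYNRG were lower in full, and CDIN1, DPH6 and ATXN3 higher. Neighbours did not always move alike, as POLR3E and LMF1 rose (0.70 and 0.86) while pemt, which makes phosphatidylcholine and follows after the uncalled RAB26, fell (-1.22). In the run of RFNG, sgca and TMEM101, the blocked differences were 0.49, 1.33 and -0.66. In that of PSMD1, HTR2B and ppp1r2 they were 0.21, 1.99 and -0.30.

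**Figure D5:**
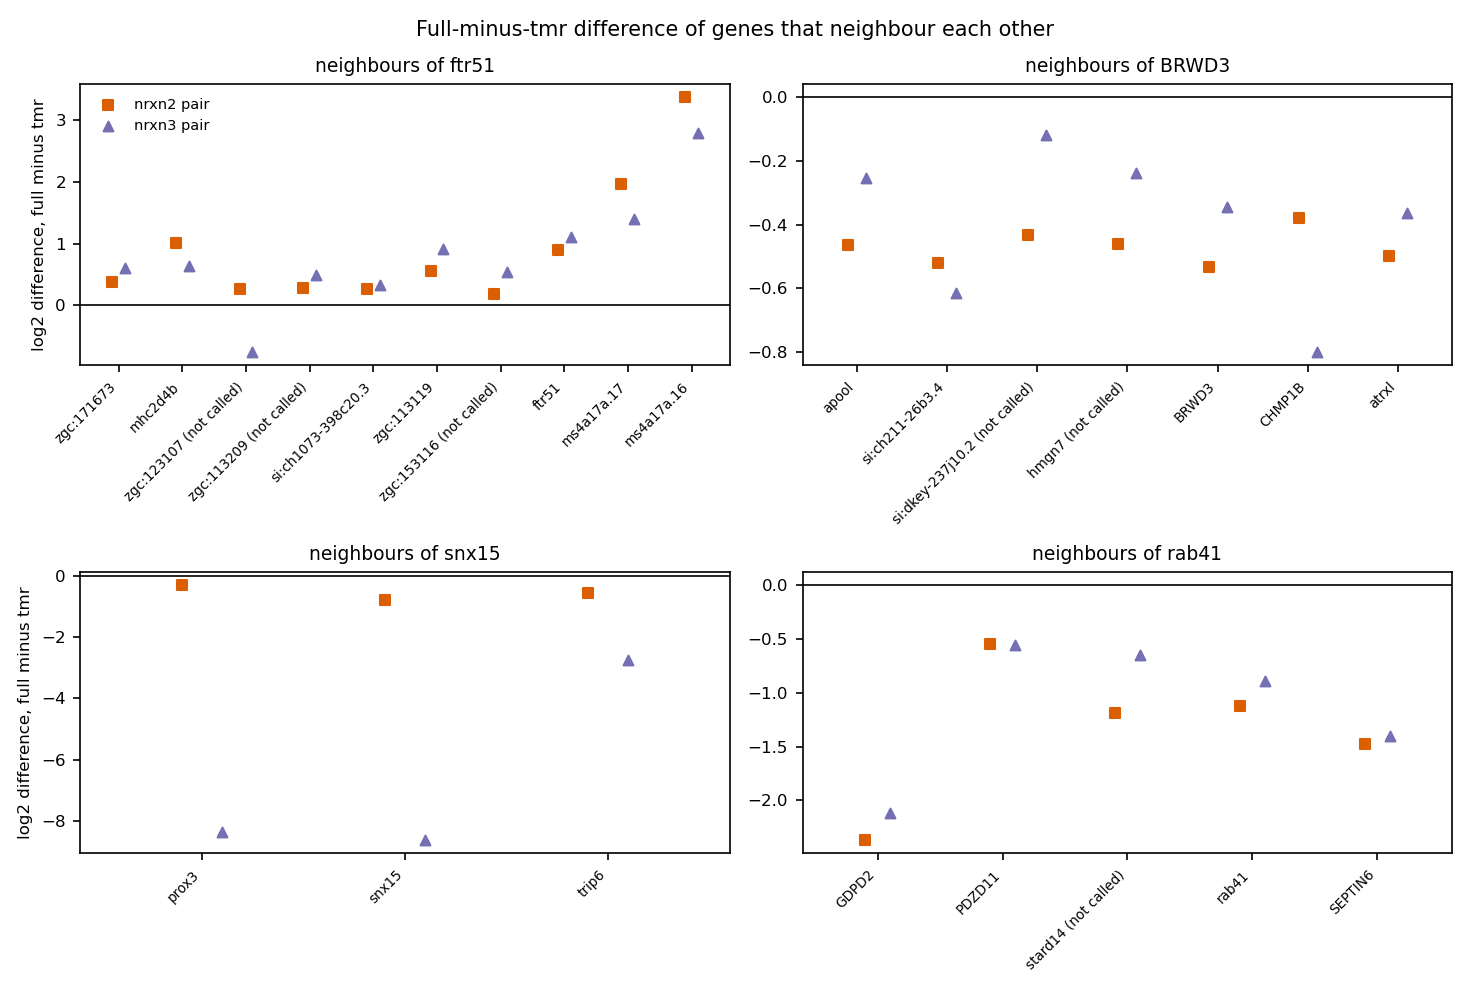
Log2 difference, full minus tmr, of genes in the order of the gene table along 4 runs (x axis, genes; symbols, nrxn2 and nrxn3 pairs; uncalled genes are marked). The 7 called genes around ftr51 lie above 0 in both pairs and the called genes of the other runs below 0, with the nrxn2 pair closer to 0 around snx15.

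Of the placed and tested genes closest to these neurexins, 10 each for nrxn2a, nrxn3a and nrxn3b and 5 for nrxn2b, 2 each were called in the neurexin's own pair beside nrxn2a, nrxn3a and nrxn3b, and 0 beside nrxn2b, where 12.1% of all genes were called in the nrxn2 pair and 4.72% in the nrxn3 pair. Without nrxn2 full replicate 1 there were 3 beside nrxn2a and 1 beside nrxn2b, where 23.7% of all genes were called. Beside nrxn2a, BBS1, a subunit of the ciliary BBSome, was higher in full by 5.70 (SE 1.15, adjusted p = 0.00693). Beside nrxn3b, TSHR, the receptor of thyrotropin, was higher in full by 3.27 (SE 0.296, adjusted p = 5.93e-06). SNW1, the nearest tested gene on the other side of nrxn3b, had -0.06 and did not pass the test.

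The gene lists for synapses and neurons held no call by edgeR in the blocked fit, which called few of all genes. By edgeR, none of 37 tested neurexin partners, 47 genes of the glutamate synapse, 34 of the GABA and glycine synapse, 40 of vesicle release or 34 excitability channels was called with 1 sign, where 1.43% of all genes were. Over the 192 genes of these 5 lists edgeR called 0, 13 had an unadjusted p under 0.05 and 1 sign, DESeq2 called 3 and limma-voom with the line as a block 0. Over all genes 10% had such a p with 1 sign, DESeq2 called 4.39% and limma-voom 0.203%. With so few of all genes called, a lack of calls says little about lists of this size. The median pair differences of the partners were -0.03 and 0.04, beside medians of 0.00 in each pair over all genes. Of the 37 partners, 1 was called higher and 1 lower in full in the nrxn2 pair, where 12.1% of all genes were called. In the nrxn3 pair 2 were called higher and 0 lower, where 4.72% of all genes were called. So few calls say little about the list. Among them C1QL3 (ENSDARG00000036483), a synaptic C1q-like protein, was called in the nrxn2 pair (0.72, adjusted p = 0.0324, edgeR). nlgn2b, a neuroligin, was called in the nrxn3 pair (6.38), as was CBLN4, a cerebellin (0.89).

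Of 75 genes of adhesion and axon guidance 1 was called, where 1.43% of all genes were. It was IGSF21 (ENSDARG00000056084), an immunoglobulin protein that binds neurexin 2 in the mouse. It had 289, 315 and 504 in nrxn2 full libraries, against 96.9, 73.0 and 75.5 in nrxn2 tmr libraries. It had 313, 324 and 281 in nrxn3 full libraries, against 78.8, 72.0 and 147 in nrxn3 tmr libraries. The blocked difference was 1.29 (SE 0.283, adjusted p = 0.0309), the size differed between pairs (adjusted p = 0.00569) and the call was lost in 9 of the 18 fits that left out 1 library (highest adjusted p 0.0706). TENM3, a teneurin that guides axons, was called lower in full in the nrxn2 and nrxn3 pairs, at -3.03 and -1.93, but was not called in the blocked fit (adjusted p = 0.521). Of the 75 genes, 4 were called higher and 8 lower in the nrxn2 pair, and 1 higher and 2 lower in the nrxn3 pair. Over all genes 12.1% and 4.72% were called in these pairs.

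Over all genes 1.43% were called, and among 29 heat shock genes 1 was. This was HSPA8 (ENSDARG00000068992), the constitutive Hsc70 chaperone. It had 5632, 5351 and 5694 in nrxn3 full libraries, against 7284, 8191 and 8208 in nrxn3 tmr libraries. In the nrxn2 pair it had 3077, 2955 and 2970.3 in full and 3172, 3362 and 3318 in tmr libraries, a difference of -0.13 that was not called alone. The blocked difference was -0.51 (SE 0.103, adjusted p = 0.0223). Of 37 lysosomal genes LGMN, the protease legumain, was called, with a rise of 0.14 (SE 0.0274, adjusted p = 0.0191) and a median of 5229 normalised counts in the 9 full libraries (range 4842 to 5854), against 4690.3 in the 9 tmr libraries (range 4489.7 to 5267). Of 74 ribosomal protein genes RPL13A was called, and of 22 endothelial genes tek. With 1.43% of all genes called, 1 call says little about any of these lists. With the line as a correlated block none of HSPA8, LGMN, IGSF21, RPL13A and tek kept its call (adjusted p from 0.0644 to 0.235).

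No immediate early, stress axis, neuropeptide, monoamine, clock, MHC or interferon gene of the lists was called with 1 sign by edgeR, where 1.43% of all genes were. Nor was any unfolded protein, cholesterol, mitochondrial transcript or proliferation entry of the lists. The lists are partial. Outside them timm23b, mhc2d4b and HTR2B, a serotonin receptor, were called in the blocked fit, at 1.68, 0.66 and 1.99. HTR2B had few counts, with a mean of 24.4 over the 18 libraries, and its pair differences were 0.03 and 3.00. In the nrxn2 pair its groups overlapped, at 11.1, 5.75 and 6.71 in full against 9.32, 7.73 and 6.04 in tmr libraries. Proliferation and neurogenesis had 5 of 36 genes at an unadjusted p under 0.05 with 1 sign and 4 called by DESeq2, and the monoamine list 6 of 27 and 2, where 10% and 4.39% of all genes were. Interferon genes had medians of -0.84 and -0.24 over 30 genes and 10 called lower in full in the nrxn2 pair (12 without nrxn2 full replicate 1), where 5.71% of all genes were called lower (13.6% without that library). IFIH1, a sensor of viral RNA, had differences of -2.17 and 0.81, called in the nrxn2 pair. Mitochondrial transcripts were higher in full in the nrxn2 pair, with 11 of 13 called (12 without nrxn2 full replicate 1), where 6.37% of all genes were called higher (10.1% without that library), and a median of 0.42, and had a median of -0.08 in the nrxn3 pair.

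Of the cell type markers, tek was the 1 gene called in the blocked fit, where 1.43% of all genes were. Marker sums differed between full and tmr in single pairs. Summed over 16 oligodendrocyte and myelin genes, nrxn2 full libraries had 390898, 438535 and 458816 normalised counts, against 270643, 288522 and 346464 in nrxn2 tmr libraries. In the nrxn3 pair the full libraries were lower, with 234124, 237906 and 271982, against 286408, 339331 and 380622 in tmr libraries. The groups did not overlap in either pair, and 7 of the 16 genes were called higher in full in the nrxn2 pair, for example OLIG2, a transcription factor of the oligodendrocyte lineage, at 0.59. They were 7 without nrxn2 full replicate 1 as well, and 6.37% of all genes were called higher (10.1% without that library). In the nrxn3 pair 0 of the 16 oligodendrocyte and myelin genes were called, where 4.72% of all genes were. Their median difference there was -0.11, beside 0.52 in the nrxn2 pair. Other marker sums moved with the oligodendrocyte sum in the nrxn2 pair, where 7 of 16 neuron markers were also called higher (10 higher and 2 lower without nrxn2 full replicate 1). Neuron sums were 395099 to 439848 in nrxn2 full libraries, against 385112 to 392702 in nrxn2 tmr libraries, and radial glia and astroglia sums 280038 to 307791 in nrxn2 full libraries, against 263160.0 to 270496 in nrxn2 tmr libraries. Microglia and macrophage sums were 31987 to 39663 in nrxn2 full libraries, against 25802 to 30807 in nrxn2 tmr libraries, and blood sums 30235 to 33439 in nrxn2 full libraries, against 16744 to 26823 in nrxn2 tmr libraries. None of these 4 sums overlapped between the groups in that pair, and all 4 did in the nrxn3 pair. Such a lack of overlap was common, at 29.1% of all single genes in the nrxn2 pair and 24.8% in the nrxn3 pair. In bulk tissue, fewer cells of a type and less RNA per cell cannot be told apart.

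The retina and photoreceptor sum was 27067, 748 and 1021 in nrxn2 full and 1103, 15555 and 11842 in nrxn2 tmr libraries, and 1025, 16455 and 2000.1 in nrxn3 full and 961, 35807 and 1186 in nrxn3 tmr libraries. The groups overlapped in every pair, and 0 of 36 genes was called by edgeR in the blocked fit or in any pair, with 0 at an unadjusted p under 0.05 and 1 sign and 0 by DESeq2. Over all genes the blocked fit called 1.43%, 10% had such a p with 1 sign and DESeq2 called 4.39%. The median of its genes was -0.91 in the blocked fit and that of 14 pineal genes -0.65, beside -0.01 over all genes. Their part in the results above was not tested.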

How the data were processed

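Poly(A) RNA-seq reads were aligned by the authors to GRCz11 with STAR 2.7.11b, after trimming in Trimmomatic 0.39 and quality checks in FastQC 0.11.9 and MultiQC 1.9. The deposited values are raw counts per gene; which strand column was kept is not stated. Genotypes came from the labels; the wild type and 1 other line were not used. All 3 pairs entered the fits; results of 1 pair on its own, the fit without it and 1 synaptic gene are not reported here.

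Genes that reached 10 counts in 3 or more of the 18 libraries were tested in R 4.3.3 with edgeR 4.0.16 (robust quasi-likelihood), with DESeq2 1.42.0 size factors as offsets and Benjamini-Hochberg adjustment over all genes. The blocked fit had pair and allele as terms; each pair and the difference between pairs used 1 coefficient per line. limma 3.58.1 was an alternative. The code was tested on simulated data. With 1 coefficient per line, p-values rest on how far replicates of the same line differ, which may be technical. In the blocked fit they also take in how far the full-minus-tmr difference varies between pairs.

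Named genes were the neurexins, the 10 largest rises and falls (symbol, mean of at least 50), up to 4 called members per list, up to 10 with no overlap in any pair, and 6 differing between pairs. Genes called in the same direction in each pair were added after the values were seen. Members and lists were chosen with earlier results of these data known. Symbols matched 29201 of 37241 identifiers; lists were matched by symbol in any case or by an all-capital symbol without the paralogue letter, a rule set after the symbols were seen. The identifier with the symbol NRXN3 was taken as nrxn3a. The named genes with no overlap in any pair were taken among called genes only. No sequence is shown.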

Additional observations from a re-analysis of the deposited data

Results flagged for a closer look

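The full-minus-tmr difference was not the same in the 3 pairs for 3123 genes by edgeR's test of the difference between pairs. Among the genes named in the report the adjusted p of that test was 9.72e-13 for nrxn2a, 2.16e-08 for nrxn2b, 3.24e-11 for nrxn3a and 7.12e-10 for nrxn3b, each of which differed in its own pair. It was 1.78e-10 for FBXO45, 9.13e-10 for ARPP19, 1.46e-09 for si:ch73-119p20.1, 1.46e-09 for SMNDC1, 1.61e-09 for cpt1ab and 9.19e-09 for SDHAF2, which were named for it.

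Of 46 named genes called with 1 sign, 14 also differed in size between the pairs. The adjusted p was 1.04e-06 for prox3, 1.21e-05 for snx15, 9.37e-05 for trip6 and 3.38e-05 for dok7a, which differed less in the nrxn2 than in the nrxn3 pair. It was 0.0285 for HSPA8 and 0.00716 for SRD5A2, also smaller in the nrxn2 than in the nrxn3 pair. It was 0.0101 for MMGT1, 0.0491 for GDPD2, 0.00569 for IGSF21, 0.000826 for tmt1a.1 and 0.00120 for RPL13A. It was 0.000215 for SRSF1, 0.0422 for NRG2, smaller in the nrxn3 than in the nrxn2 pair, and 0.0245 for ENSDARG00000111215, also smaller in the nrxn3 pair.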

How the results depend on the processing

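The count of 333 genes called with 1 sign was 330 with TMM factors, 291 without a filter and 316 when 3 libraries had to reach 50 counts, and 223 to 360 when 1 library was left out. It was 108 (98 shared) with the replicate block, 1012 with 1 coefficient per line and the mean of the 3 contrasts, 47 with limma-voom, 1019 with DESeq2, and 0 with counts summed per line. There were 358 calls without the nrxn2 pair and 321 without the nrxn3 pair, of which 119 and 118 were among the 333.

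The nrxn2 pair had 1470 to 5466 without single libraries, and the nrxn3 pair 684 to 1215, and 1902 with DESeq2. The difference between pairs was called in 4727 genes by DESeq2, with a likelihood ratio test in place of the Wald test, and in 2343 to 5561 without single libraries, the highest without nrxn2 full replicate 1. The 4 reported neurexins stayed called in their own pair in every fit.

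Replicate numbers did not pair the samples, as the deviations of same-numbered libraries correlated between -0.0523 and 0.036 in 7 pairs of libraries. Of the 46 named genes called with 1 sign, none changed direction under any alternative. Their sign was part of the rule by which they were called, so this is no sign of stability. With the replicate block 20 lost the call, with limma-voom 23, with DESeq2 3 (no adjusted p was given), without a filter 4, without the nrxn2 pair 13 and without the nrxn3 pair 17, with counts summed per line all 46, and with TMM factors 0. Single left-out libraries ended the call most often for si:ch211-127b6.2 and prox3 (13 of 18 fits each) and for tmt1a.1 and dok7a (12 each). The cause of these changes was not tested.

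Some uncalled genes changed sign in the blocked fit. Without the nrxn2 pair, nrxn2a was 0.063, nrxn2b 0.062, FBXO45 -0.87, ARPP19 -0.35, si:ch73-119p20.1 -0.34 and SDHAF2 -0.27. Without the nrxn3 pair, ARPP19 was -3.40 and SMNDC1 0.42. ARPP19 ranged from -0.36 to 1.47 and cpt1ab from -0.45 to 0.71 without single libraries, and ARPP19 was -0.029 with limma-voom and cpt1ab -0.022 with the replicate block.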

Other observations

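Values in the wild-type libraries, which were left out of the comparison, are given for genes that were on or off by allele type, with size factors over all 24 libraries and no test. Of the genes low in full brains, ENSDARG00000104629 had 2.03, 0 and 2.82 normalised counts in wild type and ENSDARG00000110250 had 2.03, 0 and 3.76, near the full brains. ENSDARG00000116037 had 194, 159 and 203, within the range of the tmr brains. ENSDARG00000114434 had 268, 251 and 219 and ENSDARG00000111215 had 22.4, 48.1 and 30.1, between the ranges of full and tmr brains. Of the genes low in tmr brains, ENSDARG00000110391 had 471, 627 and 530.2 in wild type, ENSDARG00000110657 had 255, 331 and 363, ENSDARG00000110691 had 274, 362 and 276 and ENSDARG00000111985 had 260.2, 249 and 280.2, far above the tmr brains like most full brains. ENSDARG00000110059 had 1.02, 1.17 and 0, within the range of the tmr brains.

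CAMKV had 22.4, 3106 and 3265 in wild type, so that wild type held libraries at either level. DYNLL2 had 1129, 1942 and 1050.1 in wild type. NRG2 had 698, 714 and 912 in wild type. RPL13A had 153, 144 and 117 in wild type.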
